A study of Mus musculus with 47 samples.

Results

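The response to a tumour was compared between white fat and gastrocnemius muscle in 20 of the 47 RNA libraries of a mouse series, 5 in each of 4 groups. The measure was the difference of 2 responses for each gene, the response in white fat less the response in muscle, where a response is the log2 fold change with a tumour and IgG1 over no tumour. Errors after ± are standard errors of the fit, over 5 libraries a group. The libraries were chosen by tissue and group label, and the whole table of gene counts was fitted at once. All animals are labelled C57Bl6. The groups without a tumour are labelled NTB, and their labels name no antibody. The tumour groups were inoculated with HT1080, a human fibrosarcoma line, received the antibody IgG1 at 3 mg/kg weekly from Day 0, and were harvested 21 days after inoculation. A further tumour group received 3P10, an antibody against the receptor GFRAL, and it enters no comparison below except as extra groups in 1 alternative fit. Because the antibody came only with the tumour, the effects of the 2 cannot be told apart. The labels do not state age, sex, fat depot, tumour size, food intake or the animals' immune status. They also do not state that libraries of a group came from separate animals, so the p-values measure the spread between these libraries.

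Cancer cachexia is a wasting state in which white fat gives up stored triglyceride and skeletal muscle loses protein. The 2 tissues receive the same circulating signals, among them glucocorticoids, inflammatory cytokines and GDF15, whose receptor GFRAL acts in the hindbrain to lower food intake. In wasting muscle, FoxO factors, glucocorticoids and IL-6 family cytokines are known to raise ubiquitin ligases and repressors of translation, while white fat under beta-adrenergic drive can gain mitochondria and thermogenic genes.

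The libraries held 24759436 to 33502175 counts in muscle and 22351555 to 80661547 counts in white fat. The summed level of 10 white adipocyte markers was 40670 to 63270 CPM (counts relative to library size, after TMM scaling) in white fat. In muscle it was 2475 to 4376 CPM without and 3795 to 8166 CPM with a tumour. In the fit described below, 2 of the 10 rose in muscle (background 2.29% higher) and 1 in white fat (background 4.73% higher). Their part in the differences between the tissues was not tested. The summed level of 10 skeletal muscle fibre markers was 245600 to 535400 CPM in muscle and 652 to 1749 CPM in white fat, so each tissue held the markers of its label. B and T cell markers were close to 0, with 9 markers summing to 0.440 to 1.36 CPM in white fat. Of the 9, 1 passed the filter on low counts.

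Some libraries stood apart from the others of their tissue. In white fat, IgG1 replicates 2 and 4 scored 56.7 and 69.1 on the first principal component (42.6% of the variance) against -24.6 to 11.6 in the other 8. The same 2 libraries held brown or beige adipocyte markers at 3987 and 4165 CPM, summed over 10 genes, against 133 to 1193 CPM in the other fat libraries. They also held skin or mammary epithelium markers at 229.5 and 802 CPM against 4.13 to 53.4 CPM. In muscle, IgG1 replicates 2 and 4 and NTB replicate 3 scored 43.4, 41.6 and 29.7 on the first component (45.3% of the variance) against -25.4 to -3.72 in the other 7. Below, the difference of each called gene described is also given without IgG1 replicates 2 and 4 of both tissues.

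Of 24391 genes in the table, 14580 passed the filter and were tested with edgeR's quasi-likelihood test and Benjamini-Hochberg adjustment. The response differed between the tissues in 62 genes at an adjusted p under 0.05, which is 0.425% of those tested. In 26 of them (0.178%) the response was higher in white fat, and in 36 (0.247%) it was lower. The adjusted p-values of the 62 lay between 0.0361 and 0.0491, so every call was close to the limit, while 2129 genes had an unadjusted p under 0.05. The size of the difference among the 62 ran from 0.68 to 6.004 on the log2 scale, with a median of 1.47, and the highest belongs to Edn3, which had no reads in white fat without a tumour. The median difference over all tested genes was -0.0039. In the same fit, 1380 genes passed in white fat (9.47%) and 574 in muscle (3.94%). Of the 140 genes that passed in both tissues, 136 moved the same way, 53 up and 83 down, and 4 moved in opposite directions. A further 1674 genes passed in 1 tissue only, and for 57 of these the difference between the tissues passed as well. For most genes that passed in 1 tissue only, the difference between the tissues was therefore tested and did not pass.

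**Figure D1:**
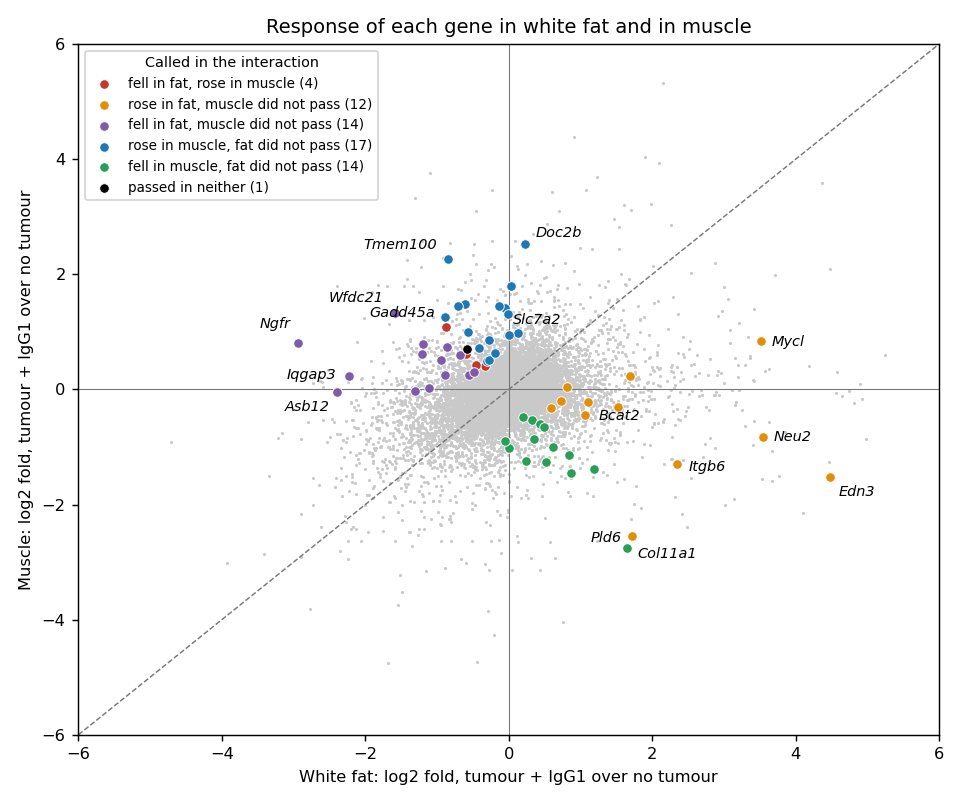
Log2 fold change with a tumour and IgG1 over no tumour in white fat (horizontal axis) and in muscle (vertical axis) for the 14580 tested genes, each a grey point. The 62 genes called in the interaction are coloured by the tissue in which they passed, the dashed line marks equal responses, and 7 genes lie beyond the axes.

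The 62 genes fell into 6 classes, shown by colour in the plot of both responses. In 17 the gene rose in muscle and did not pass in white fat, in 14 it fell in muscle and did not pass in white fat, in 14 it fell in white fat and did not pass in muscle, and in 12 it rose in white fat and did not pass in muscle. In 4 it fell in white fat and rose in muscle, and in 1, Cth, neither tissue passed alone. No called gene rose in white fat and fell in muscle with both tests passed. The fold changes of 52 of the 62 had opposite signs, whatever their p, and in 4 of the 62 both tests passed with opposite signs. Choosing genes by a large difference favours opposite signs, and the share over all tested genes is not given. The 52 therefore do not show that the tissues mostly answered in opposite ways. The IgG1 and NTB libraries did not overlap in white fat for 26 of the 62 (8.87% of all tested genes did not) and in muscle for 30 (6.06% of all tested genes did not). At least 1 tissue was free of overlap in 51, and both were in 5, for which no share over all tested genes is given. The calls rest on these same levels, so the separation is not separate support for them.

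The number of calls depended on single libraries, as the plot of calls with each library left out shows. It fell to 0 without IgG1 replicate 2 or 4 of white fat, NTB replicate 1 or 3 of white fat, IgG1 replicate 2 or 4 of muscle, or NTB replicate 1, 2, 4 or 5 of muscle. It was 1 without NTB replicate 2 of white fat, 7 without NTB replicate 4, 9 without IgG1 replicate 5 and 28 without NTB replicate 5 of that tissue. Without IgG1 replicates 3 and 5 of muscle it was 8 and 12. It rose to 393 without IgG1 replicate 3 of white fat and to 241 without IgG1 replicate 1, and to 148 and 125 without IgG1 replicate 1 and NTB replicate 3 of muscle. Without IgG1 replicates 2 and 4 of both tissues no gene passed in edgeR, 1315 genes had an unadjusted p under 0.05, and the smallest adjusted p was 0.088. DESeq2 called 429 genes, including all 62, and 58.7% of its calls were higher in white fat against 41.9% here. A fit of all 6 groups, the 3P10 groups included, called 166 genes, 57.8% of them higher in white fat. With the label number that a fat and a muscle library share as a block, no gene passed either, and the smallest adjusted p was 0.0697. The labels do not say whether that number stands for an animal. Each of the 62 calls was kept in 8 to 17 of the 29 to 31 alternatives that tested it, and the sign of its difference was kept in all of these. Without IgG1 replicates 2 and 4 of both tissues, 55 of the 62 differences stayed within 1.5 times their size, and the median was 83.3% of the first value. The 7 that shrank more, with values given below, were Itgb6, Col11a1, Eif4ebp1, Figf, Tmem25, Gng2 and Sh3kbp1, of which Figf and Gng2 are named after their values were seen. A call below means a pass in the fit of all 20 libraries.

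**Figure D2:**
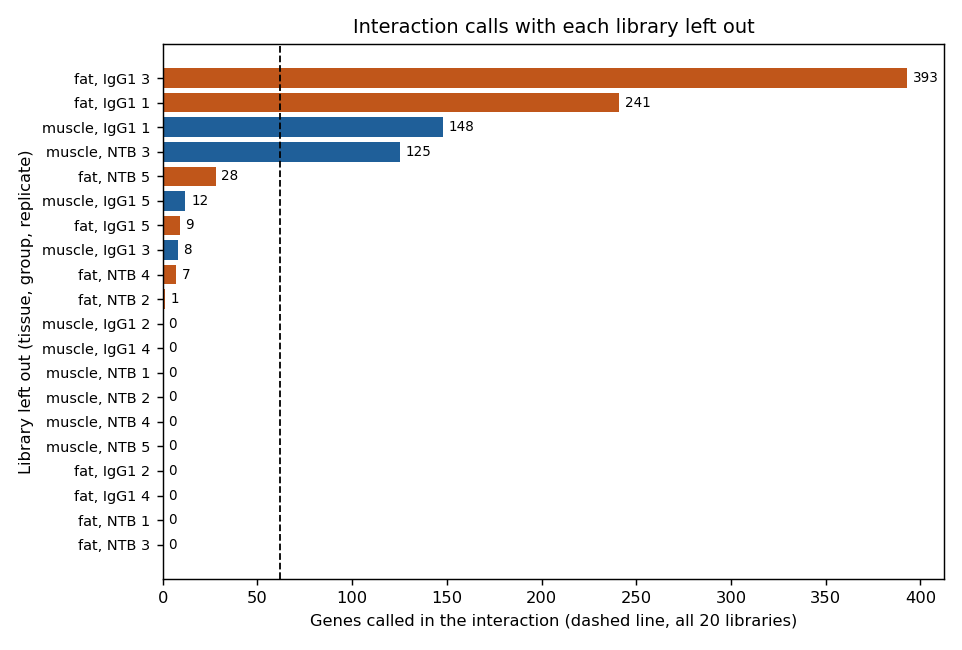
Number of genes called in the interaction with each of the 20 libraries left out in turn, orange for white fat and blue for muscle. The dashed line marks the 62 calls with all libraries, and the bars run from 0 to 393.

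The 4 genes called with opposite responses fell in white fat, rose in muscle and differed between the tissues. They were Gadd45a, a stress-induced growth arrest gene that promotes fibre atrophy in muscle; Zfp36l1, an RNA-binding protein that speeds decay of AU-rich messages; Morf4l2, a chromatin protein of histone acetylase complexes; and Eif1a, a translation initiation factor. In white fat, Gadd45a was at 16.4, 16.3, 14.5, 16.1 and 18.5 CPM in NTB replicates 1 to 5 and 13.8, 6.299, 10.02, 4.703 and 9.85 CPM in IgG1 replicates 1 to 5, in that order. In muscle it was at 28.5, 24.6, 42.2, 28.7 and 33.2 CPM in NTB libraries and 52.7, 105, 57.7, 57.1 and 58.4 CPM in IgG1 libraries. No IgG1 library overlapped the NTB libraries in either tissue, and muscle IgG1 replicate 2 was the highest. The response of Gadd45a was -0.88 ± 0.24 in white fat (adjusted p = 0.0278) and 1.08 ± 0.24 in muscle (adjusted p = 0.0154), and the difference was -1.95 ± 0.34 (adjusted p = 0.0361). It was -1.39 without IgG1 replicates 2 and 4 of both tissues (adjusted p = 0.088). Over the 31 alternatives the adjusted p of Gadd45a ran from 1.17e-04 to 0.104, and its call was kept in 17.

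Zfp36l1 stood in white fat at 141, 110.4, 103, 141 and 87.5 CPM in NTB libraries and 78.3, 76.6, 81.7, 90.3 and 56.7 CPM in IgG1 libraries. Its levels in muscle were 31.7, 28.4, 31.5, 32.6 and 27.03 CPM in NTB libraries and 45.7, 44.1, 47.95, 62.8 and 30.9 CPM in IgG1 libraries. In white fat 1 library with a tumour, replicate 4, lay just above the lowest NTB library, and 1 muscle library with a tumour, replicate 5, lay inside the NTB range. The response of Zfp36l1 was -0.60 ± 0.17 in white fat (adjusted p = 0.0308) and 0.62 ± 0.17 in muscle (adjusted p = 0.0466), with a difference of -1.22 ± 0.24 (adjusted p = 0.0361). Morf4l2 was at 54.7, 58.97, 61.05, 64.6 and 57.6 CPM in NTB libraries and 51.2, 36.2, 48.5, 39.3 and 40.4 CPM in IgG1 libraries in white fat. In muscle, Morf4l2 was at 77.7, 79.6, 73.3, 96.6 and 93.6 CPM in NTB libraries and 116, 113, 112.2, 120.4 and 101 CPM in IgG1 libraries. The Morf4l2 groups did not overlap in either tissue, and the steps were small, -0.46 ± 0.11 in white fat (adjusted p = 0.017) and 0.42 ± 0.11 in muscle (adjusted p = 0.0429), with a difference of -0.88 ± 0.16 (adjusted p = 0.0361). Eif1a showed the smallest steps of the 4, -0.33 ± 0.10 in white fat (adjusted p = 0.0496) and 0.40 ± 0.11 in muscle (adjusted p = 0.0375), with a difference of -0.73 ± 0.15 (adjusted p = 0.0361). Its libraries lay at 48.6 to 57.6 CPM without and 36.7 to 47.3 CPM with a tumour in white fat, and at 11.4 to 15.7 CPM without and 17.6 to 20.7 CPM with a tumour in muscle, with no overlap in either. Without IgG1 replicates 2 and 4 of both tissues the differences were -1.15 for Zfp36l1, -0.72 for Morf4l2 and -0.71 for Eif1a, and none passed (adjusted p = 0.205, 0.245 and 0.245). The number of opposite calls went from 0 to 18 as single libraries were left out: it was 0 in the 10 fits with no interaction call and without NTB replicate 2 of white fat, and 18 without IgG1 replicate 3 of white fat. It was 16 without IgG1 replicate 1 of muscle, 9 without NTB replicate 3 of muscle, 8 without IgG1 replicate 1 of white fat, 2 without IgG1 replicate 3 of muscle, and 1 without IgG1 replicate 5 or NTB replicate 4 of white fat. With each tissue fitted alone, none of the 4 passed in both tissues, and the 1 opposite call was Tmem100.

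**Figure D3:**
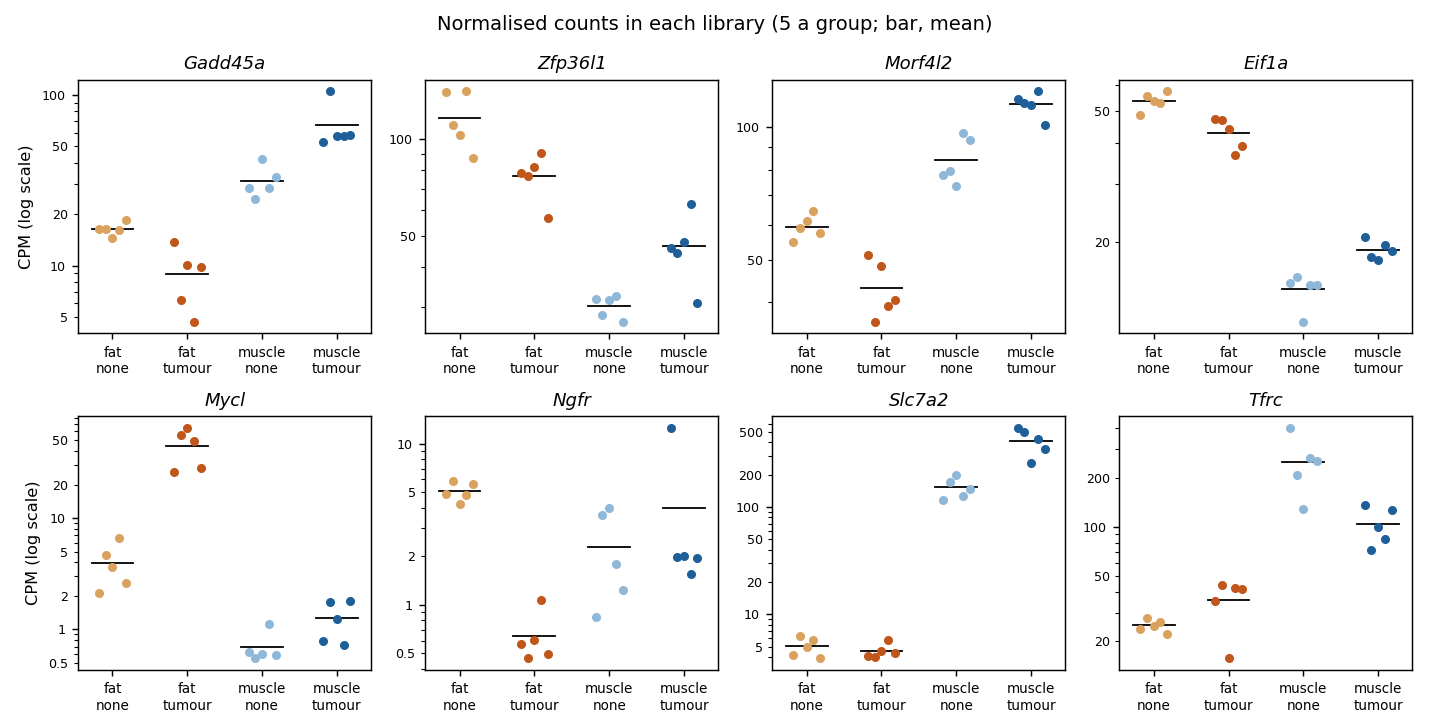
CPM on a log scale in each of the 20 libraries for 8 genes, with the bar at the mean of 5 libraries. The upper row holds the 4 genes that fell in white fat and rose in muscle, and the lower row Mycl and Ngfr, which changed in white fat, and Slc7a2 and Tfrc, which changed in muscle.

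Of the 12 genes that rose in white fat and did not pass in muscle, 7 were measured at about 1 CPM or more in both tissues. Mycl, a Myc family transcription factor, was at 2.12, 4.61, 3.64, 6.58 and 2.63 CPM in NTB libraries and 26.1, 55.96, 64.5, 49.1 and 27.9 CPM in IgG1 libraries in white fat. In muscle, Mycl was at 0.550 to 1.11 CPM without and 0.718 to 1.81 CPM with a tumour, and these ranges overlap. The response of Mycl was 3.52 ± 0.34 in white fat (adjusted p = 1.93e-05) and 0.85 ± 0.40 in muscle (adjusted p = 0.256), a difference of 2.67 ± 0.51 (adjusted p = 0.0361), and without IgG1 replicates 2 and 4 of both tissues it was 2.45 (adjusted p = 0.245). Net1, an exchange factor that activates RhoA, rose to 404 to 648 CPM with a tumour against 90.7 to 241 CPM without in white fat and stood at 51.7 to 84.2 CPM without and 71.8 to 81.1 CPM with a tumour in muscle. The response of Net1 was 1.70 ± 0.21 in white fat (adjusted p = 2.97e-04) and 0.23 ± 0.21 in muscle (adjusted p = 0.607), and the difference of 1.47 was 1.32 without those 4 libraries (adjusted p = 0.255). All 5 white fat libraries with a tumour lay above all 5 without for both genes.

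Bcat2, the mitochondrial aminotransferase that begins breakdown of branched-chain amino acids, was at 93.03, 118, 105, 99.8 and 112.4 CPM in NTB libraries and 172, 323, 170.5, 266 and 201 CPM in IgG1 libraries in white fat. Its muscle levels were 71.9, 70.03, 97.3, 76.1 and 77.9 CPM in NTB libraries and 61.1, 86.6, 66.5, 67.5 and 58.1 CPM in IgG1 libraries. White fat with a tumour lay wholly above white fat without, while the muscle groups overlapped. The response of Bcat2 was 1.10 ± 0.17 in white fat (adjusted p = 0.00112) and -0.21 ± 0.17 in muscle (adjusted p = 0.544). The difference for Bcat2 was 1.31 ± 0.24 (adjusted p = 0.0361), and 1.13 without IgG1 replicates 2 and 4 of both tissues (adjusted p = 0.088). Timm50, a subunit of the importer of the inner mitochondrial membrane, was at 39.3 to 51.2 CPM without and 52.4 to 88.4 CPM with a tumour in white fat. In muscle Timm50 was at 49.2 to 68.01 CPM without and 42.97 to 61.05 CPM with a tumour. The response of Timm50 was 0.73 ± 0.14 in white fat (adjusted p = 0.00522) and -0.20 ± 0.14 in muscle (adjusted p = 0.484). Macrod1, a mitochondrial hydrolase of ADP-ribose, and Coro1b, an actin regulator, were outside the naming rule and are named because their values were seen. Their differences were 1.51 and 0.77, with fat fold changes of 1.07 and 0.81 that passed (adjusted p = 0.0105 and 7.30e-04). Leaving out the same 4 libraries gave differences of 0.92 for Timm50, 1.28 for Macrod1 and 0.75 for Coro1b, and none passed (adjusted p 0.205 to 0.245).

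The remaining 5 of the 12 had under 1 CPM in most libraries of 1 tissue, and their fold changes rest on few reads. Neu2, a cytosolic sialidase, had 3 counts in all in the 5 NTB libraries of white fat and 59 in the 5 IgG1 libraries, at 0.0286 to 0.468 CPM, and 10.1 to 14.4 CPM without and 5.22 to 8.103 CPM with a tumour in muscle. Edn3, a vasoactive endothelin peptide, had 0 and 23 counts in white fat, where the highest library reached 0.175 CPM. Its muscle libraries held 0.932 to 2.52 CPM without and 0.350 to 0.634 CPM with a tumour. In white fat, 3 of the 5 IgG1 libraries lay under the 3 counts taken as the limit of detection, so no fold change is given for Edn3 there, and its fitted difference depends on the prior count of the fit. Itgb6, an integrin subunit of epithelia, was at 0.0995, 0.115, 0.201, 0.154 and 0.228 CPM in NTB libraries and 0.114, 0.904, 0.495, 2.15 and 0.110 CPM in IgG1 libraries in white fat. The 2 highest were IgG1 replicates 2 and 4, the libraries with the raised epithelium markers, and the part of those markers in the result was not tested. In muscle, Itgb6 was at 37.4 to 62.02 CPM without and 10.3 to 33.7 CPM with a tumour, and its difference was 3.65 and 1.58 without IgG1 replicates 2 and 4. Pld6, a phospholipase of the outer mitochondrial membrane, was at 0.324 to 0.650 CPM without and 0.743 to 2.55 CPM with a tumour in white fat, again highest in replicates 2 and 4, and had 18 and 3 counts in muscle. Chodl, a membrane lectin named after its values were seen, stood at 0.0402 to 0.123 CPM without and 0.138 to 0.321 CPM with a tumour in white fat. In muscle Chodl was at 7.68 to 10.2 CPM without and 5.698 to 8.88 CPM with a tumour. Without IgG1 replicates 2 and 4 of both tissues the fitted differences were 4.21 for Neu2, 4.30 for Edn3, 2.89 for Pld6 and 1.73 for Chodl, against 4.37, 6.004, 4.27 and 1.83 with them, and none passed (adjusted p 0.205 to 0.349). That of Pld6 was 2.65 with NTB replicate 3 of muscle left out as well.

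Among the 14 genes that fell in white fat and did not pass in muscle, Ngfr had the steepest fall. Ngfr is the low-affinity neurotrophin receptor p75, carried by nerves, Schwann cells and some stromal cells. It was at 4.88, 5.85, 4.22, 4.79 and 5.62 CPM in NTB libraries and 0.572, 0.467, 0.608, 1.06 and 0.495 CPM in IgG1 libraries in white fat, with no overlap. In muscle it was at 0.844, 3.62, 3.96, 1.78 and 1.24 CPM in NTB libraries and 12.5, 1.98, 2.01, 1.56 and 1.94 CPM in IgG1 libraries, where IgG1 replicate 1 stood far above the other 9 libraries. The response of Ngfr was -2.94 ± 0.55 in white fat (adjusted p = 0.00368) and 0.81 ± 0.52 in muscle (adjusted p = 0.431), and the difference of -3.75 ± 0.75 (adjusted p = 0.0361) became -4.43 without IgG1 replicates 2 and 4 of both tissues (adjusted p = 0.185). The summed level of 8 Schwann cell or nerve markers was 175.4 to 226 CPM without and 153.5 to 258 CPM with a tumour in white fat, and 186 to 356 CPM and 156 to 431 CPM in muscle. Their part in the fall of Ngfr was not tested.

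Bbc3, Cdkn2c and Iqgap3 were also in this class. Bbc3, the pro-apoptotic protein Puma, was at 17.8, 18.4, 11.8, 14.1 and 18.2 CPM in NTB libraries and 10.6, 5.31, 3.96, 6.66 and 8.06 CPM in IgG1 libraries in white fat. In muscle Bbc3 was at 1.88 to 5.02 CPM without and 3.21 to 7.05 CPM with a tumour. The response of Bbc3 was -1.22 ± 0.27 in white fat (adjusted p = 0.0105) and 0.61 ± 0.28 in muscle (adjusted p = 0.251). Cdkn2c, an inhibitor of the cyclin D kinases, was at 224, 201, 155, 250.4 and 180.4 CPM in NTB libraries and 138, 97.5, 101, 111.7 and 104 CPM in IgG1 libraries in white fat. In muscle Cdkn2c was at 14.5 to 24.7 CPM without and 16.2 to 41.7 CPM with a tumour. The response of Cdkn2c was -0.87 ± 0.22 in white fat (adjusted p = 0.0185) and 0.73 ± 0.22 in muscle (adjusted p = 0.0659). Both genes separated the white fat groups without overlap, while the muscle groups overlapped. Iqgap3, a scaffold protein of dividing cells, was at 0.975 to 1.901 CPM without and 0.0825 to 0.554 CPM with a tumour in white fat. In muscle Iqgap3 was at 0.792 to 1.74 CPM without and 0.972 to 2.57 CPM with a tumour, a difference of -2.46 ± 0.53 (adjusted p = 0.0454). Chaf1a, a histone chaperone of replicating chromatin, and Smc4, a condensin subunit, were named after their values were seen, with fat fold changes of -0.68 and -0.55 and muscle fold changes of 0.60 and 0.26. The differences were -1.82 for Bbc3, -1.60 for Cdkn2c, -1.28 for Chaf1a and -0.81 for Smc4. With IgG1 replicates 2 and 4 of both tissues left out they were -1.39 for Bbc3, -1.19 for Cdkn2c, -0.88 for Chaf1a and -0.81 for Smc4, that of Iqgap3 was -2.69, and none passed (adjusted p 0.205 to 0.361). Over the 26 tested genes of the cell cycle list, 9 fell in white fat (background 4.73% lower) and 2 in muscle (background 1.65% lower), none was called in the interaction, and the medians were -0.89 and -0.53, both below 0.

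Wfdc21, a small secreted protein with a WAP domain, fell to 4.71 to 8.81 CPM with a tumour against 13.8 to 33.6 CPM without in white fat, and in muscle its libraries held 0.162 to 0.870 CPM without and 0.576 to 1.52 CPM with a tumour. The response of Wfdc21 was -1.59 ± 0.32 in white fat (adjusted p = 0.00656) and 1.33 ± 0.42 in muscle (adjusted p = 0.0814), a difference of -2.93 ± 0.53 (adjusted p = 0.0361). Asb12, a substrate receptor of a ubiquitin ligase, fell in white fat to 0.0292 to 0.225 CPM with a tumour against 0.322 to 0.957 CPM without, on 108 and 26 counts, and stood at 10.6 to 20.9 CPM without and 10.99 to 16.3 CPM with a tumour in muscle. The other 6, named after their values were seen, were Amer1, Sema3c, Ckap4, Eda2r, Ick and Mtss1l, with differences of -1.13, -1.27, -1.13, -1.99, -0.79 and -1.45. Sema3c, a secreted guidance protein, was at 38.1 to 53.2 CPM without and 12.6 to 27.97 CPM with a tumour in white fat. In muscle Sema3c was at 62.95 to 71.9 CPM without and 60.1 to 72.4 CPM with a tumour. In the fit without IgG1 replicates 2 and 4 of both tissues the differences were -2.48 for Wfdc21, -1.70 for Asb12, -1.21 for Amer1, -1.05 for Sema3c, -1.07 for Ckap4, -1.63 for Eda2r, -0.73 for Ick and -1.10 for Mtss1l, and none passed (adjusted p 0.205 to 0.349).

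The largest class held 17 genes that rose in muscle and did not pass in white fat, among them Socs3 and Eif4ebp1. Socs3, the feedback inhibitor that IL-6 family cytokines induce through STAT3, was at 3.46, 4.54, 2.38, 4.97 and 3.07 CPM in NTB libraries and 10.2, 11.8, 8.92, 10.1 and 8.49 CPM in IgG1 libraries in muscle. In white fat it was at 4.43, 4.67, 4.26, 3.83 and 2.89 CPM in NTB libraries and 4.58, 4.03, 4.505, 2.15 and 4.24 CPM in IgG1 libraries. Every muscle library with a tumour was above every one without, and the white fat groups overlapped. The response of Socs3 was -0.05 ± 0.22 in white fat (adjusted p = 0.914) and 1.42 ± 0.22 in muscle (adjusted p = 0.00178), with a difference of -1.47 ± 0.31 (adjusted p = 0.0454). The difference for Socs3 was -1.17 without IgG1 replicates 2 and 4 of both tissues (adjusted p = 0.255). Eif4ebp1, which holds back cap-dependent translation when mTORC1 is low, was at 31.6, 36.5, 71.4, 44.2 and 51.6 CPM in NTB libraries and 102, 244, 97.2, 259 and 111 CPM in IgG1 libraries in muscle. Its white fat libraries held 156 to 222 CPM without and 145 to 228 CPM with a tumour. The 2 highest muscle libraries were IgG1 replicates 2 and 4, and the difference of -1.76 ± 0.39 (adjusted p = 0.0491) was -0.93 without them and their white fat partners by number (adjusted p = 0.371).

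Spns2, which exports sphingosine 1-phosphate, was at 27.1, 32.7, 19.5, 31.03 and 45.3 CPM in NTB libraries and 100.2, 70.3, 65.5, 112.3 and 88.4 CPM in IgG1 libraries in muscle. In white fat Spns2 was at 8.94 to 22.99 CPM without and 8.17 to 15.3 CPM with a tumour. The muscle groups did not overlap. The response of Spns2 was -0.61 ± 0.26 in white fat (adjusted p = 0.148) and 1.49 ± 0.27 in muscle (adjusted p = 0.00477). Doc2b, a calcium sensor of vesicle fusion, was at 0.577, 0.779, 0.330, 0.386 and 0.754 CPM in NTB libraries and 1.93, 4.02, 3.26, 4.39 and 2.802 CPM in IgG1 libraries in muscle. In white fat Doc2b was at 1.61 to 3.52 CPM without and 1.57 to 4.39 CPM with a tumour. The response of Doc2b was 0.23 ± 0.30 in white fat (adjusted p = 0.685) and 2.52 ± 0.35 in muscle (adjusted p = 8.04e-04). Aebp1, a protein of connective tissue and preadipocytes, was at 53.4, 82.6, 90.98, 83.1 and 78.9 CPM in NTB libraries and 141, 226, 177, 207 and 174 CPM in IgG1 libraries in muscle. In white fat Aebp1 was at 137, 81.8, 87.8, 54.3 and 18.6 CPM in NTB libraries and 32.3, 45.5, 60.1, 30.9 and 34.96 CPM in IgG1 libraries, where NTB replicate 5 was the lowest of all 10. The response of Aebp1 was -0.90 ± 0.33 in white fat (adjusted p = 0.0899) and 1.25 ± 0.33 in muscle (adjusted p = 0.0399). The 10 fibroblast and preadipocyte markers summed to 889 to 1225 CPM without and 687 to 932 CPM with a tumour in muscle, where 2 of the 10 fell (background 1.65% lower). In white fat they summed to 920 to 1740 CPM without and 447 to 996.5 CPM with a tumour, and 5 of the 10 fell (background 4.73% lower). Their part in the difference of Aebp1 was not tested. The differences of -2.09 for Spns2, -2.29 for Doc2b and -2.15 for Aebp1 were -1.89, -1.82 and -1.91 without IgG1 replicates 2 and 4 of both tissues, and none passed (adjusted p 0.243 to 0.337).

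The other 12 of this class were outside the naming rule and are named because their values were seen: Slc7a2, Tmem100, Hgs, Rassf4, Ptp4a3, Tchp, Figf, Gng2, Malt1, Mgea5, Ccng2 and Zcchc24. Slc7a2, a transporter of arginine and lysine, was at 117, 170.3, 200.2, 126 and 148 CPM in NTB libraries and 546, 501, 255, 433 and 347 CPM in IgG1 libraries in muscle. In white fat Slc7a2 was at 3.900 to 6.28 CPM without and 4.03 to 5.72 CPM with a tumour. The muscle groups did not overlap, the fold changes were -0.14 ± 0.20 in white fat (adjusted p = 0.707) and 1.45 ± 0.20 in muscle (adjusted p = 8.04e-04), and the difference of -1.59 ± 0.28 (adjusted p = 0.0361) was -1.54 without IgG1 replicates 2 and 4 of both tissues. Tmem100, a membrane protein of vessels, was at 9.54, 11.3, 20.01, 17.03 and 15.5 CPM in NTB libraries and 17.2, 99.8, 50.1, 116 and 67.5 CPM in IgG1 libraries in muscle. In white fat it was at 4.75, 3.23, 5.43, 8.09 and 5.102 CPM in NTB libraries and 2.89, 3.56, 2.95, 2.65 and 2.75 CPM in IgG1 libraries, lower in 4 of 5 tumour libraries than in any without. The response of Tmem100 was -0.85 ± 0.35 in white fat (adjusted p = 0.132) and 2.26 ± 0.36 in muscle (adjusted p = 0.00178). Hgs, which sorts ubiquitin-tagged receptors into endosomes, was at 27.04 to 31.7 CPM without and 50.5 to 64.97 CPM with a tumour in muscle. In white fat Hgs was at 30.2 to 38.2 CPM without and 29.1 to 42.9 CPM with a tumour. Ptp4a3, a phosphatase abundant in muscle, was at 968 to 1474 CPM without and 2283 to 4583 CPM with a tumour there, while its white fat ranges of 32.3 to 56.5 CPM without and 35.7 to 52.98 CPM with a tumour overlapped. Ccng2, a cyclin that FoxO factors induce, and Mgea5, which removes O-GlcNAc from proteins, had muscle fold changes of 0.51 and 0.49 (adjusted p = 0.022 and 0.0181). The differences of Figf, a growth factor of lymphatic vessels, and Gng2, a G protein subunit, went from -1.57 and -2.15 to -0.96 and -1.43 without IgG1 replicates 2 and 4 of both tissues. In that fit the other differences were -2.51 for Tmem100, -0.60 for Hgs, -0.78 for Rassf4, -0.91 for Ptp4a3, -0.67 for Tchp, -1.18 for Malt1, -0.80 for Mgea5, -0.67 for Ccng2 and -0.96 for Zcchc24, and none of the 12 passed (adjusted p 0.205 to 0.321).

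Alas1 and Tfrc were among the 14 genes that fell in muscle and did not pass in white fat. Alas1, the first and limiting enzyme of heme synthesis, was at 229.9, 188, 175, 184 and 211 CPM in NTB libraries and 123, 129, 134, 111.5 and 129 CPM in IgG1 libraries in muscle. In white fat it was at 187, 147, 166, 229.7 and 188 CPM in NTB libraries and 264, 327, 197, 314 and 188 CPM in IgG1 libraries. The muscle groups did not overlap, and 3 of 5 white fat libraries with a tumour were above all without. The response of Alas1 was 0.49 ± 0.16 in white fat (adjusted p = 0.0546) and -0.66 ± 0.16 in muscle (adjusted p = 0.0242), with a difference of 1.15 ± 0.22 (adjusted p = 0.0361). Tfrc, the transferrin receptor through which cells take up iron, was at 403, 206, 128, 263 and 254 CPM in NTB libraries and 136, 71.95, 101, 84.4 and 127 CPM in IgG1 libraries in muscle. In muscle IgG1 replicate 1 and NTB replicate 3 overlapped. In white fat Tfrc was at 23.7, 27.8, 24.96, 26.3 and 22.2 CPM in NTB libraries and 35.3, 43.9, 15.8, 42.5 and 41.97 CPM in IgG1 libraries, higher than all NTB libraries in 4 libraries with a tumour and lower than all in replicate 3. The response of Tfrc was 0.52 ± 0.27 in white fat (adjusted p = 0.23) and -1.27 ± 0.27 in muscle (adjusted p = 0.0126), and its difference was 1.79 ± 0.38 (adjusted p = 0.0454). Without IgG1 replicates 2 and 4 of both tissues the differences were 0.86 for Alas1 and 1.36 for Tfrc, and neither passed (adjusted p = 0.255 and 0.366).

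Pgm2, Pcx and Aldh4a1 are metabolic enzymes of this class. Pgm2, a phosphoglucomutase that links glycogen to glycolysis, was at 1982, 2320, 1957, 2212 and 2248 CPM in NTB libraries and 1695, 1393, 1287, 1279 and 1433 CPM in IgG1 libraries in muscle, with no overlap, and at 201 to 282 CPM without and 238 to 359.6 CPM with a tumour in white fat. The response of Pgm2 was 0.44 ± 0.15 in white fat (adjusted p = 0.0602) and -0.60 ± 0.15 in muscle (adjusted p = 0.0252). Pcx, which carboxylates pyruvate to oxaloacetate, and Aldh4a1, of proline breakdown, were named after their values were seen. Pcx was at 507, 681, 528, 761 and 746 CPM in NTB libraries and 511, 99.8, 161, 184 and 218 CPM in IgG1 libraries in muscle. In white fat Pcx was at 524 to 1088 CPM without and 821 to 2148 CPM with a tumour. In muscle, IgG1 replicate 1 was the library that overlapped with the NTB range. The response of Pcx was 0.87 ± 0.34 in white fat (adjusted p = 0.105) and -1.46 ± 0.34 in muscle (adjusted p = 0.0209). That of Aldh4a1 was 0.62 ± 0.23 in white fat (adjusted p = 0.0931) and -0.996 ± 0.23 in muscle (adjusted p = 0.021). The differences of 1.04, 2.32 and 1.62 were 0.89 for Pgm2, 2.03 for Pcx and 1.21 for Aldh4a1 without IgG1 replicates 2 and 4 of both tissues, and none passed (adjusted p 0.245 to 0.327).

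Itgb1bp2, or melusin, a chaperone-like protein of striated muscle, was at 240.2, 234, 480.3, 224 and 218 CPM in NTB libraries and 148, 128, 97.9, 77.9 and 85.2 CPM in IgG1 libraries in muscle, where NTB replicate 3 was far above the others. White fat held 0.523 to 1.04 CPM without and 0.572 to 4.12 CPM with a tumour of Itgb1bp2, highest in IgG1 replicate 3. That library also had the highest sum of 8 slow muscle fibre markers in white fat, 568 CPM against 144 to 242 CPM in the other 9. Of the 8, 6 rose in white fat (background 4.73% higher), with a median fold change of 2.06, and none passed in muscle. None was called in the interaction, and 6 had an unadjusted p under 0.05 with the higher response in white fat (background 8.11%). The part of muscle fibre RNA in the result for Itgb1bp2 was not tested. Sh3kbp1, an adaptor of receptor endocytosis, was at 32.5 to 41.5 CPM without and 10.3 to 27.4 CPM with a tumour in muscle. In white fat Sh3kbp1 was at 35.2 to 48.2 CPM without and 34.5 to 71.3 CPM with a tumour, a difference of 1.48 ± 0.31 (adjusted p = 0.0454). Parp10, which attaches single ADP-ribose units to proteins, was at 14.2 to 21.3 CPM without and 5.48 to 10.9 CPM with a tumour in muscle. In white fat Parp10 was at 38.3 to 51.2 CPM without and 39.05 to 53.6 CPM with a tumour. The response of Parp10 was 0.01 ± 0.16 in white fat (adjusted p = 0.98) and -1.02 ± 0.16 in muscle (adjusted p = 0.00204). Tmem25 was at 15.9 to 23.5 CPM without and 5.77 to 12.7 CPM with a tumour in muscle, a fall without overlap, and at 0.682 to 1.61 CPM without and 0.886 to 2.697 CPM with a tumour in white fat. Col11a1, a minor fibrillar collagen chain, fell in muscle to 0.0422 to 0.719 CPM with a tumour against 1.06 to 4.39 CPM without, and white fat held 7 and 38 counts of it in all. Beside that fall, the 8 tendon markers summed to 91.3 to 151.6 CPM without and 28.1 to 79.7 CPM with a tumour in muscle, and their part in it was not tested. Ibtk, Mpi, Nmt2 and Tmx2, named after their values were seen, completed the class with muscle fold changes of -0.89, -0.49, -0.53 and -0.87. The differences of Tmem25 and Col11a1 were 1.97 and 4.39. In the fit that leaves out IgG1 replicates 2 and 4 of both tissues the differences were 2.85 for Itgb1bp2, 0.99 for Sh3kbp1, 0.92 for Parp10, 1.27 for Tmem25, 2.44 for Col11a1, 0.65 for Ibtk, 0.68 for Mpi, 0.63 for Nmt2 and 0.94 for Tmx2, and none passed (adjusted p 0.205 to 0.505).

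Cth, which makes cysteine from cystathionine, was called in the interaction although neither tissue passed alone. It was at 12.2, 9.88, 8.93, 11.4 and 9.46 CPM in NTB libraries and 7.06, 8.49, 5.07, 8.04 and 6.11 CPM in IgG1 libraries in white fat. In muscle it was at 3.33, 3.71, 4.23, 4.54 and 4.79 CPM in NTB libraries and 5.54, 9.33, 5.51, 8.41 and 4.57 CPM in IgG1 libraries. The groups separated in white fat and overlapped in muscle by 1 library, IgG1 replicate 5. The response of Cth was -0.58 ± 0.19 in white fat (adjusted p = 0.0608) and 0.70 ± 0.20 in muscle (adjusted p = 0.0545), with a difference of -1.27 ± 0.28 (adjusted p = 0.0456) that was -1.11 without IgG1 replicates 2 and 4 of both tissues (adjusted p = 0.205).

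The 136 genes that passed in both tissues with the same sign give the background to these differences. Scg3, a granin-binding protein of secretory granules, was at 2.41, 1.498, 0.825, 1.88 and 1.33 CPM in NTB libraries and 0.400, 0.146, 0.518, 0.269 and 0.330 CPM in IgG1 libraries in white fat. In muscle it was at 3.06, 3.21, 4.09, 3.38 and 2.800 CPM in NTB libraries and 0.680, 0.583, 0.623, 0.380 and 0.388 CPM in IgG1 libraries. Both tissues separated without overlap, the fold changes were -2.25 ± 0.32 in white fat (adjusted p = 7.30e-04) and -2.64 ± 0.33 in muscle (adjusted p = 4.50e-04), and the difference of 0.40 ± 0.45 (adjusted p = 0.753) did not pass. Dpysl3, Mfap4 and Thy1, genes of neurons, elastic fibres and stromal cells, also fell in both tissues, with fat fold changes of -1.37, -2.24 and -2.23 and muscle fold changes of -0.92, -2.95 and -1.76. Of 29 collagen chain and matrix genes, 22 fell in white fat (background 4.73% lower, 14 to 23 with single libraries left out) and 11 in muscle (background 1.65% lower, 1 to 16), none was called in the interaction, and the medians were -1.38 and -1.04. The fibroblast and preadipocyte markers, whose sums are given with Aebp1, had medians of -0.93 and -0.49, and their part in the fall of these genes was not tested. Of 21 glucocorticoid response genes, 7 rose in white fat (background 4.73% higher, 3 to 8 with single libraries left out) and 9 in muscle (background 2.29% higher), with medians of 1.09 and 0.89. The median difference of the 21 was -0.28, and none was called in the interaction. An unadjusted p under 0.05 was found for 3 with the lower response in white fat (background 6.49%) and for none with the higher (background 8.11%). Fkbp5, the textbook target of the glucocorticoid receptor, had fold changes of 2.08 ± 0.37 in white fat (adjusted p = 0.00294) and 1.53 ± 0.37 in muscle (adjusted p = 0.0233), with a difference of 0.56 ± 0.51 (adjusted p = 0.679). A difference that did not pass does not show that the tissues answered alike, and its interval can be read from the standard errors.

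Genes of mitochondrial energy production had median differences of about 1 on the log2 scale, without a call in the interaction. Over 56 genes of oxidative phosphorylation, the median fold change was 0.76 in white fat and -0.33 in muscle, beside medians of 0.02 and 0.00 over all genes tested. None of the 56 passed in muscle (background 2.29% higher and 1.65% lower). The median difference was 1.02, 36 of the 56 had an unadjusted p under 0.05 with the higher response in white fat (background 8.11%), and none had it with the lower (background 6.49%). In white fat 11 of the 56 rose (background 4.73% higher), and 0 without IgG1 replicate 2 or 4 of that tissue, 26 without IgG1 replicate 3 and 22 without IgG1 replicate 1. Leaving out a single library of the remaining ones gave 4 to 14 for a muscle library and 1 to 13 for a white fat library. The mean of their log2 levels, set against the NTB mean of each tissue, was 0.27, 0.06, -0.33, -0.12 and 0.12 in NTB replicates 1 to 5 of white fat and -0.10, 1.13, -0.44, 1.32 and 0.66 in IgG1 replicates 1 to 5. In muscle the means were -0.05, -0.24, 0.71, -0.24 and -0.18 and -0.46, 0.20, -0.42, -0.10 and -0.60. In white fat IgG1 replicates 2, 4 and 5 lay above every NTB library and replicates 1 and 3 did not. Replicates 2, 4 and 5 were also highest in brown or beige markers, as the plot against their sum shows. Cox7a1 and Cox8b belong to both the list and those markers, so the list and the sum are not independent. The part of those markers in the result was not tested. Sdhb, a succinate dehydrogenase subunit named after its values were seen, was at 179, 170.0, 133, 150.4 and 200.2 CPM in NTB libraries and 171, 579.6, 161, 608 and 335 CPM in IgG1 libraries in white fat. In muscle Sdhb was at 497 to 631 CPM without and 347 to 539 CPM with a tumour, with a difference of 1.54 ± 0.41 (adjusted p = 0.0973). The median difference of the list was 0.69 without IgG1 replicates 2 and 4 of both tissues, and its parts were 0.14 in white fat and -0.59 in muscle. In that fit 16 genes of the list had an unadjusted p under 0.05, beside 1315 of 14823 over all genes tested. Without these 4 libraries and NTB replicate 3 of muscle the median difference of the list was 0.44. In bulk tissue, more cells of a type and more RNA per cell cannot be told apart.

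**Figure D4:**
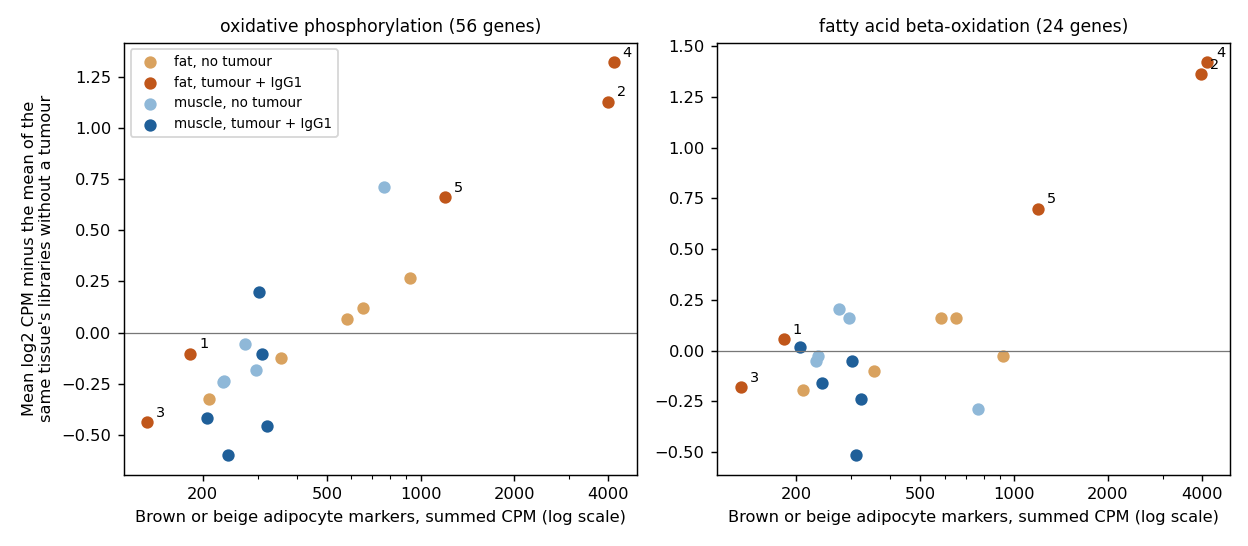
Mean log2 level of the oxidative phosphorylation genes (left) and the fatty acid beta-oxidation genes (right) in each library, set against the NTB mean of its tissue, over the summed CPM of 10 brown or beige adipocyte markers on a log scale. The numbers give the replicate of white fat with a tumour, where replicates 2 and 4 lie at 3987 and 4165 CPM and replicates 1 and 3 at 182 and 133 CPM. Cox7a1 and Cox8b are in both the oxidative phosphorylation list and the marker sum.

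Of 24 genes of fatty acid beta-oxidation, 18 had an unadjusted p under 0.05 with the higher response in white fat (background 8.11%) and none with the lower (background 6.49%). The median fold changes were 0.81 in white fat and -0.22 in muscle, where none passed (background 2.29% higher and 1.65% lower). In white fat 7 rose (background 4.73% higher). It was 1 without IgG1 replicate 4 of that tissue, 2 without replicate 2, 16 without replicate 1 and 19 without replicate 3. The mean log2 level against NTB was 0.06, 1.36, -0.18, 1.42 and 0.70 in IgG1 replicates 1 to 5 of white fat and -0.24, -0.05, 0.02, -0.52 and -0.16 in those of muscle. Ehhadh, a peroxisomal enzyme of the pathway named after its values were seen, had a difference of 1.43 ± 0.41 (adjusted p = 0.116). The median difference of the list was 1.02, and 0.41 without IgG1 replicates 2 and 4 of both tissues. In that fit 2 genes of the list had an unadjusted p under 0.05, a share close to the 1315 of 14823 over all genes tested. For mitochondrial biogenesis and dynamics, 11 of 20 genes had an unadjusted p under 0.05 with the higher response in white fat (background 8.11%). The median difference was 0.61, and it was 0.22 without those libraries. Dnm1l, which splits mitochondria and was named after its values were seen, was the 1 gene of that list that fell in muscle, to 63.4 to 77.2 CPM with a tumour against 94.8 to 107 CPM without, and its difference was 0.62 ± 0.14 (adjusted p = 0.054). Glycolysis (24 genes) and PPAR target genes (22) had median differences of 0.55 and 0.82, or 0.42 and 0.35 without those libraries. Amino acid catabolism (25 genes) had 9 genes at an unadjusted p under 0.05, all with the higher response in white fat (background 8.11%), and Bcat2 was the 1 call.

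Ucp1 and Mfsd2a, of fat in its thermogenic state, did not pass in the interaction. Ucp1, the uncoupling protein of thermogenic fat cells, was at 439.5, 233, 66.3, 129.9 and 305 CPM in NTB libraries and 52.8, 2382, 26.8, 2291 and 517 CPM in IgG1 libraries in white fat. In muscle Ucp1 was at 2.199 to 31.5 CPM without and 1.82 to 13.7 CPM with a tumour, with a difference of 3.46 ± 1.38 (adjusted p = 0.24). Mfsd2a, a lipid transporter that beta-adrenergic signals and fasting raise, was at 0.0995, 0.0288, 0.101, 0.0926 and 0.0325 CPM in NTB libraries and 0.343, 18.7, 0.698, 51.99 and 0.633 CPM in IgG1 libraries in white fat. The NTB libraries of white fat held 14 reads of Mfsd2a in all, so its fitted size is not given, and its adjusted p was 0.0537. IgG1 replicates 2 and 4 held the 2 highest levels of both genes. Over the 17 thermogenic fat genes the median difference was 1.34, and 0.12 over the 18 tested without those libraries.

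The list of IL-6 family signalling and the acute phase had the lowest median difference of the 31 lists. Of 22 genes of IL-6 family signalling and the acute phase, 6 rose in muscle (background 2.29% higher; 3 without IgG1 replicate 2 or NTB replicate 1 or 4) and 3 in white fat (background 4.73% higher; 0 without NTB replicate 1, 2 or 3, and 1 without IgG1 replicate 2 or NTB replicate 4), and the median fold changes were 0.60 and 0.04. In all, 5 of the 22 had an unadjusted p under 0.05 with the lower response in white fat (background 6.49%) and none with the higher (background 8.11%), and Socs3 was the 1 call. The mean log2 level against NTB was 0.73, 0.90, 0.43, 0.85 and 0.82 in IgG1 replicates 1 to 5 of muscle, all above the 5 NTB libraries at -0.06, -0.09, 0.02, -0.09 and 0.21. In white fat it was 0.10, 0.23, 0.24, -0.03 and 0.08 with a tumour. The median difference of -0.57 was -0.45 without IgG1 replicates 2 and 4 of both tissues. Il6ra, the receptor chain that binds IL-6, rose in both tissues and was named after its values were seen. It was at 2.71, 3.12, 1.12, 2.22 and 5.82 CPM in NTB libraries and 13.4, 14.7, 15.7, 13.8 and 24.8 CPM in IgG1 libraries in muscle. In white fat it was at 9.78, 9.85, 10.8, 14.1 and 13.5 CPM in NTB libraries and 22.2, 18.6, 31.6, 22.3 and 20.9 CPM in IgG1 libraries. The response of Il6ra was 0.99 ± 0.27 in white fat (adjusted p = 0.0281) and 2.45 ± 0.29 in muscle (adjusted p = 4.38e-04), and the difference of -1.46 ± 0.39 (adjusted p = 0.0997) did not pass. Cebpd, a transcription factor of the acute phase, also rose in both, by 3.11 in muscle and 1.71 in white fat, with a difference of -1.41 ± 0.71 (adjusted p = 0.37).

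Immediate early genes, which growth factors and stress switch on within minutes and which handling of tissue can raise, had 8 of 24 members at an unadjusted p under 0.05, all with the lower response in white fat (background 6.49%). In muscle 6 rose (background 2.29% higher, 1 to 7 with single libraries left out), in white fat 1 fell (background 4.73% lower), and the median difference was -0.31. It ran from -0.57 without IgG1 replicate 3 of white fat to -0.19 without IgG1 replicate 4 of muscle, and was -0.50 without NTB replicate 3 of muscle. Jun, a subunit of the AP-1 factor, was named after its values were seen. In muscle it was at 104 to 264 CPM in the NTB libraries, highest in replicate 3, and at 254, 362, 269.8, 365 and 231 CPM in the IgG1 libraries. In white fat Jun was at 57.9, 73.2, 75.6, 69.7 and 58.2 CPM in NTB libraries and 56.1, 43.3, 72.1, 38.8 and 32.3 CPM in IgG1 libraries. The response of Jun was -0.46 ± 0.24 in white fat (adjusted p = 0.237) and 1.02 ± 0.25 in muscle (adjusted p = 0.0241), and the difference of -1.48 ± 0.35 (adjusted p = 0.0608) did not pass. Klf6, a zinc finger factor of the same list also named after its values were seen, had fold changes of -0.31 ± 0.22 in white fat (adjusted p = 0.398) and 1.03 ± 0.23 in muscle (adjusted p = 0.0142) and a difference of -1.34 ± 0.32 (adjusted p = 0.061).

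Of 25 ubiquitin ligases and FoxO targets of muscle atrophy, 5 rose in muscle (background 2.29% higher), 4 rose and 1 fell in white fat (background 4.73% in each direction), and none was called in the interaction. In all, 7 of the 25 had an unadjusted p under 0.05 with the lower response in white fat (background 6.49%) and 2 with the higher (background 8.11%). Fbxo32, or atrogin-1, the ubiquitin ligase of wasting muscle, was at 574, 413, 501, 472 and 412 CPM in NTB libraries and 569.5, 2149, 1022, 1941 and 741 CPM in IgG1 libraries in muscle. White fat held 17.6 to 52.4 CPM without and 22.1 to 39.2 CPM with a tumour of it. The response of Fbxo32 was -0.05 ± 0.33 in white fat (adjusted p = 0.946) and 1.44 ± 0.34 in muscle (adjusted p = 0.0204), and the difference was -1.49 ± 0.47 (adjusted p = 0.145), or -0.96 without IgG1 replicates 2 and 4, which held its 2 highest muscle levels. Fbxo31, another ligase subunit of the list, had fold changes of 1.44 ± 0.21 in white fat (adjusted p = 7.30e-04) and 0.51 ± 0.20 in muscle (adjusted p = 0.168) and a difference of 0.93 ± 0.29 (adjusted p = 0.142). Ddit4, or Redd1, an inhibitor of mTORC1 that glucocorticoids induce, was at 11.01, 11.5, 7.39, 12.5 and 17.1 CPM in NTB libraries and 24.3, 78.7, 302, 330.5 and 34.9 CPM in IgG1 libraries in muscle. In white fat it was at 16.97, 58.9, 27.6, 9.11 and 30.2 CPM in NTB libraries and 54.8, 65.2, 76.3, 90.98 and 46.2 CPM in IgG1 libraries. The response of Ddit4 was 1.22 ± 0.57 in white fat (adjusted p = 0.177) and 3.69 ± 0.63 in muscle (adjusted p = 0.00343), and the difference of -2.47 ± 0.81 (adjusted p = 0.163) did not pass. Of 27 genes of insulin, IGF and growth signalling, 8 rose in muscle (background 2.29% higher) and 4 in white fat, where 2 fell (background 4.73% in each direction), and Eif4ebp1 and Gadd45a were the calls.

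**Figure D5:**
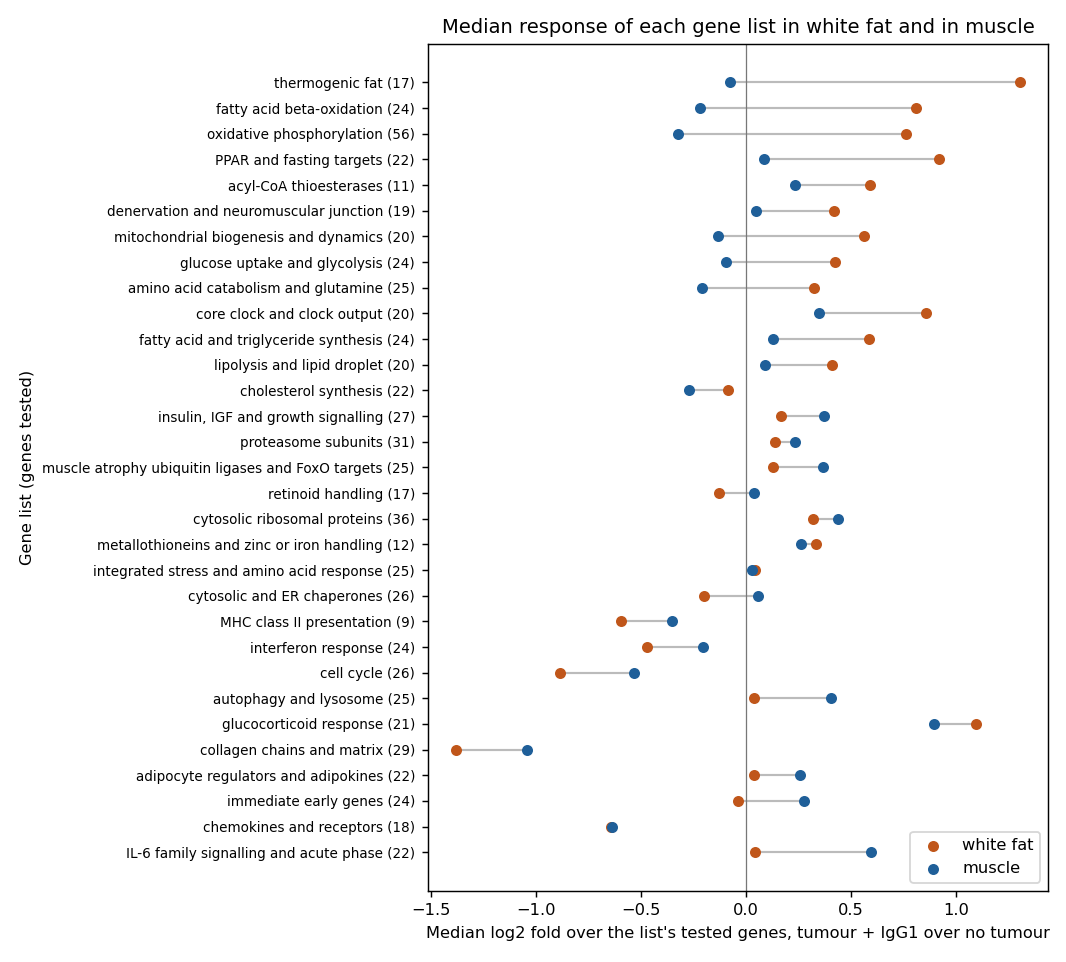
Median log2 fold change of 31 gene lists in white fat (orange) and muscle (blue), sorted by the median difference between the tissues, with the number of tested genes in brackets. Thermogenic fat, beta-oxidation and oxidative phosphorylation lie at the top with the fat median to the right, and the list of IL-6 family signalling at the bottom with the muscle median to the right.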

How the data were processed

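RNA from mouse white fat and gastrocnemius muscle was sequenced, and the authors deposited raw counts per gene in 1 table of 30 libraries. Per the submitters' processing notes, the tools included Trim Galore, STAR 2.6.0a, featureCounts 1.6.2 and edgeR 3.22.3 with genome build mm9; the annotation and the strand setting are not given in the sources used here, so overlapping and antisense genes cannot be told apart. The 20 libraries of the tumour with IgG1 and NTB groups were fitted jointly in edgeR 4.0.16 (R 4.3.3) after filtering (10 counts, 15 in total, edgeR's rule) and TMM scaling, with 1 coefficient per group, by quasi-likelihood tests of the interaction and of each tissue, Benjamini-Hochberg adjusted over all genes at 0.05. Fold changes are log2 with standard errors, and levels are TMM-scaled CPM. The scripts were tested on simulated data. Alternatives used DESeq2 1.42.0, limma 3.58.1, other scalings and filters, a replicate block and left-out libraries. Named genes are, among the calls measured at 1 CPM in both tissues and free of overlap in 1 tissue, the 10 with the largest interaction in each direction; opposite calls; up to 5 calls in each direction measured in 1 tissue; up to 4 calls of each gene list; a panel of stress, fasting and fat genes; and the 5 leading genes called alike in both tissues. Members, panel and lists were chosen with earlier results of these data known. Many genes of the panel, among them Trim63, Per1, Klf15 and Lep, and Tppp3 of the 5 leading genes, are not described above. None of the genes left out in this way was called in the interaction. Genes outside this rule are said to be so where they are named. For 1 called gene no values are reported here.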

Additional observations from a re-analysis of the deposited data

Results flagged for a closer look

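The response to the tumour and IgG1 differed between white fat and muscle in 62 genes by the interaction test of edgeR, with adjusted p-values of 0.0361 to 0.0491. Of these, 32 are named by the rule given under processing. Their interaction log2 differences, the fat response minus the muscle response, were above 0 for 16 genes: Edn3 6.004, Col11a1 4.39, Neu2 4.37, Pld6 4.27, Itgb6 3.65, Mycl 2.67, Itgb1bp2 2.57, Tmem25 1.97, Tfrc 1.79, Sh3kbp1 1.48, Net1 1.47, Bcat2 1.31, Alas1 1.15, Pgm2 1.04, Parp10 1.03 and Timm50 0.93. They were below 0 for 16 genes: Ngfr -3.75, Wfdc21 -2.93, Iqgap3 -2.46, Asb12 -2.36, Doc2b -2.29, Aebp1 -2.15, Spns2 -2.09, Gadd45a -1.95, Bbc3 -1.82, Eif4ebp1 -1.76, Cdkn2c -1.60, Socs3 -1.47, Cth -1.27, Zfp36l1 -1.22, Morf4l2 -0.88 and Eif1a -0.73. The sizes of Edn3, Neu2, Pld6, Col11a1 and Itgb6 rest on few reads in 1 tissue, and all 62 calls were lost without IgG1 replicates 2 and 4 of both tissues. All 62 were also lost with the label number as a replicate block.

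Single libraries lay far from the other 4 of their group, by a gap over 0.71 of the group's range, in 21 of the 204 sets of 5 libraries examined (10.3%). That limit gives about 1 in 20 only for independent, normally spread values. The sets share the same libraries and mostly hold CPM without a log scale, so an excess over chance cannot be read from the 10.3%. NTB replicate 3 of muscle was the highest for Bcat2 (97.3 CPM), Itgb1bp2 (480.3 CPM) and Jun (263.9 CPM) and the lowest for Eif1a (11.4 CPM). That library also stood apart on the first principal component (29.7) and in the sum of brown or beige adipocyte markers (764.6 CPM). This sum holds Cox7a1 and Cox8b, which are also in the oxidative phosphorylation list. Ucp1, another of its markers, was at 27.5 CPM there and at 31.5 CPM in NTB replicate 5 of muscle, where the sum was 295.4 CPM. IgG1 replicate 4 of white fat had the most reads (80.66 M counts) and the highest sum of skin or mammary epithelium markers (802 CPM), the highest Ngfr (1.06 CPM) and the lowest Socs3 (2.15 CPM) of its group. IgG1 replicate 1 of muscle was the highest for Ngfr (12.5 CPM) and Sh3kbp1 (27.4 CPM), and IgG1 replicate 5 for Il6ra (24.8 CPM) and Net1 (81.1 CPM). IgG1 replicate 3 of white fat was the highest for Il6ra (31.6 CPM) and Klf6 (98.0 CPM). Gadd45a was highest in IgG1 replicate 2 of muscle (105 CPM), Mycl in NTB replicate 4 of muscle (1.11 CPM), Parp10 in NTB replicate 1 of muscle (21.3 CPM), Doc2b in NTB replicate 3 of white fat (3.52 CPM) and Tmem25 in NTB replicate 2 of white fat (1.61 CPM).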

How the results depend on the processing

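The interaction count of 62 was 60 with RLE factors, 58 with TMM factors within each tissue, and 62 and 63 with the 2 filters at 1 CPM. It was 7 with no filter on low counts, 166 in a fit of all 6 groups, 429 in DESeq2 and 31 in limma voom. Without IgG1 replicates 2 and 4 of both tissues it was 0, and without the 5 libraries that stand apart it was 2. Opposite calls, 4 at first, numbered 1 with no filter, 9 with all 6 groups, 19 in DESeq2, 0 without IgG1 replicates 2 and 4, 1 without the 5 libraries and 1 with each tissue fitted alone. The white fat count of 1380 was 2221 in DESeq2, 351 without IgG1 replicates 2 and 4 of both tissues and 765 without the 5 libraries. The muscle count of 574 was 1088 in DESeq2, 215 without IgG1 replicates 2 and 4 and 347 with muscle fitted alone. With each library left out in turn the interaction count ran from 0 to 393, opposite calls from 0 to 18, the white fat count from 584 (without its NTB replicate 1) to 2147 (without its IgG1 replicate 3), and the muscle count from 229 (without its IgG1 replicate 4) to 1052 (without its NTB replicate 3). The differences of the 62 called genes kept their sign in each of the 29 to 31 alternatives that tested them, and none of the 62 calls was kept in all. With 1 library fewer the interaction count both fell, to 0, and rose, to 393. The cause of these changes, and of those under the other settings, was not tested.

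With the label number as a replicate block, no gene passed in the interaction in edgeR (0 calls and 0 opposite calls), 1938 genes had an unadjusted p under 0.05, and the smallest adjusted p was 0.0697. White fat and muscle libraries shared that number in 10 of 10 pairs. The correlation of their deviations ran from -0.122 to 0.163 and passed 0.1 in 4 pairs. The deviations of 7 of the 10 correlated best with those of the same number. These correlations cannot decide whether the numbers pair the samples, and the labels do not say whether they stand for animals. The fit behind the 62 calls uses no pairing, so it may misstate the spread if a number is an animal. Depth limits genes near 3 counts, which is 0.127 to 0.198 CPM in muscle and 0.0288 to 0.0975 CPM in white fat.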

Other observations

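A few lists have not been described so far. Over all tested genes, 4.73% rose and 4.73% fell in white fat, and 2.29% rose and 1.65% fell in muscle. Of 20 core clock and clock output genes, 8 rose and 1 fell in white fat and 4 rose in muscle, with medians of 0.86 and 0.35, and none was called in the interaction. Of 18 chemokines and receptors, 1 rose and 5 fell in white fat and 1 rose in muscle, with medians of -0.64 and -0.64. Of 20 genes of lipolysis and lipid droplets, 4 rose in white fat and 1 in muscle, with medians of 0.41 and 0.09. Of 11 acyl-CoA thioesterases, 4 rose in white fat and none passed in muscle. Acot2, the mitochondrial enzyme among them, was at 18.8 to 28.1 CPM without and 45.5 to 61.3 CPM with a tumour in white fat, with no overlap. In muscle Acot2 was at 15.8 to 39.2 CPM without and 17.6 to 37.9 CPM with a tumour.

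The tumour groups that received 3P10 were measured in the same table and are given as ranges over 5 libraries, with no test. Gadd45a was at 24.3 to 54.5 CPM in muscle and 12.96 to 21.3 CPM in white fat. Mycl was at 2.08 to 10.1 CPM and Ngfr at 2.204 to 6.78 CPM in white fat. Bcat2 was at 54.6 to 117 CPM in white fat. In muscle, Socs3 was at 4.23 to 10.4 CPM, Eif4ebp1 at 50.2 to 87.8 CPM, Slc7a2 at 155 to 377 CPM, Alas1 at 155 to 187 CPM and Tfrc at 97.7 to 183 CPM.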
